A study of Mus musculus with 12 samples.

Results

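The PDZ-LIM (PDLIM) family, palladin and zyxin are scaffold proteins of the actin cytoskeleton, and their transcripts were followed in W-20 cells exposed to parathyroid hormone (PTH). The set comprised 9 genes of the 56980 in the count matrix, *Pdlim1*, *Pdlim2*, *Pdlim3*, *Pdlim4*, *Pdlim5*, *Pdlim7*, *Ldb3*, *Palld* and *Zyx*, found by matching the Ensembl identifiers of the matrix to these symbols. They were chosen by family name after *Pdlim5* had been seen among the largest changes with PTH in unmodified cells. The change with PTH in those cells, its difference from the change in the mutant line and the comparison of both lines with PTH rest on the same unmodified libraries with PTH, and are given for the 9 genes as descriptions, without p-values. The change with PTH in the mutant line and the comparison of the lines with vehicle were tested.

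W-20 is a murine bone marrow stromal cell line. RNA was measured in 12 libraries, 3 in each of 4 groups. Unmodified W-20 cells (WT) and a derived stable line (Y428F) were each given 50 nM PTH or an equal volume of vehicle (PBS) for 2 hours. To make the Y428F line, a plasmid encoding Flag-tagged YAP with a changed tyrosine was introduced, and positive clones were selected with puromycin. The library titles name this line, although its genotype entry reads WT. In its account of the PTH comparison the study describes the sequenced line as carrying this tyrosine-to-phenylalanine change together with a serine-to-alanine change in YAP, and elsewhere it names the tyrosine change alone. A line with the tyrosine change alone was also made. No library from cells with only the serine change was analysed here, so the changes cannot be told apart. No library from cells with an introduced wild-type YAP was analysed here, so the mutation cannot be told apart from whatever else sets the cell lines apart. The RNA of *Yap1*, at 189 ± 7.20 CPM in WT and 147 ± 4.64 CPM in the Y428F line with vehicle (SD, n = 3 each), does not check a point mutation. That of the kinase gene *Src* was at 97.2 ± 10.8 CPM in WT and 106 ± 2.31 CPM in the Y428F line.

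Library totals ranged from 17127864 to 19057314 counts. Values are CPM, in which edgeR's TMM factors set the library sizes, and a gene was called changed at an adjusted p under 0.05 in edgeR's quasi-likelihood test. Sampling noise alone did not account for the spread within groups, since the chi-square per degree of freedom was 2.94 to 15.2 over the 12 pairs of replicates. The study describes its data as coming from independent experiments, but the labels do not tie the libraries to separate cultures, so p-values measure only the spread between these libraries, which may be technical. Each library is bulk RNA, in which fewer cells of a type and less RNA per cell cannot be told apart.

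PDLIM proteins join a PDZ domain, which binds alpha-actinin on actin filaments, to LIM zinc-finger domains, which bind other proteins. The ALP subfamily (*Pdlim1*, *Pdlim2*, *Pdlim3* and *Pdlim4*) carries a single LIM domain, and the Enigma subfamily (*Pdlim5*, *Pdlim7* and *Ldb3*) carries several. Palladin crosslinks actin filaments through immunoglobulin-like domains and also binds alpha-actinin, whereas zyxin is a LIM protein of focal adhesions that recruits Ena/VASP proteins to stress fibers. These scaffolds are best known from the Z-discs of striated muscle and from the stress fibers and adhesions of non-muscle cells.

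The sequences upstream of *Pdlim5* and *Palld* are shown because these genes gained the most CPM with PTH among the scaffolds. Each is the 250 bases before the start of the canonical transcript (GENCODE vM39, GRCm39, minus strand in both cases), at chr3:142101816-142102065 for *Pdlim5* and at chr8:62355797-62356046 for *Palld*. The last 15 bases of the *Pdlim5* window lie in an exon of another *Pdlim5* transcript. Capitals mark a match to any of the motifs searched.
Pdlim5: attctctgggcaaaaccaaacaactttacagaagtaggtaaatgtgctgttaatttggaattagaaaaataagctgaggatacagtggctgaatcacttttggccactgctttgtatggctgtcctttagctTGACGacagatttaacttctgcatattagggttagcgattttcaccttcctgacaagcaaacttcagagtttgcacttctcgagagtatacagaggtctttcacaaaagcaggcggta
Palld: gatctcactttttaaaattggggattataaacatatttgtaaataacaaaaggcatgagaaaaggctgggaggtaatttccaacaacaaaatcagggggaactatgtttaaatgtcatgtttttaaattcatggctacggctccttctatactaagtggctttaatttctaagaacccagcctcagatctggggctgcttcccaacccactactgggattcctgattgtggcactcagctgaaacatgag
The motifs were searched on both strands in these windows of all 9 genes. They were the full cAMP response element TGACGTCA, its core TGACG (which the full element contains), the TEAD motif GGAATG and the CArG box of serum response factor. The *Pdlim5* window held 1 TGACG, from 118 to 114 bases before the start, and the *Pdlim3* window held 1 GGAATG. The windows of the other 7 genes held none of the motifs, but those of *Pdlim7* and *Ldb3* lay wholly, that of *Zyx* for 234 of its 250 bases and that of *Pdlim1* for 41 in exons of other transcripts of the same genes. Among 21757 such windows of protein-coding genes, 18% held TGACG, 12.1% held GGAATG, 1.7% held TGACGTCA and 1.4% held a CArG box. Over all annotated starts of the 9 genes, 0 of 39 windows held TGACGTCA and 0 held a CArG box, against 1.64% and 1.25% of 54362 windows. TGACG was found in 6 of the 39 and GGAATG in 4, against 18.7% and 11.8%. A match describes the letters only.

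The 9 genes differed widely in level. To compare genes, CPM was divided by the length of their merged exons. In WT cells with vehicle *Zyx* stood at 226 ± 7.59 CPM per kb, *Palld* at 24.9 ± 1.41, *Pdlim2* at 20.5 ± 0.672, *Pdlim1* at 15.6 ± 0.256, *Pdlim7* at 15.5 ± 0.432 and *Pdlim5* at 7.10 ± 0.369 (SD, n = 3). *Pdlim1* and *Pdlim7* overlapped, and the other neighbours in this order did not. *Ldb3*, whose product is the ZASP or Cypher protein of muscle Z-discs, followed at 0.259 ± 0.0604 CPM per kb. *Pdlim4*, which encodes RIL, had 1 to 12 counts per library over all groups, and *Pdlim3*, which encodes ALP of muscle, had 0 counts in all 12 libraries, where 3 counts correspond to 0.152 to 0.185 CPM. *Pdlim3* was not tested, and the other 8 genes passed the filter of 10 counts in total. With PTH the order in WT cells was *Zyx* (246 ± 16.1), *Palld* (66.6 ± 3.602), *Pdlim5* (41.9 ± 1.52), *Pdlim7* (28.8 ± 0.882), *Pdlim2* (17.3 ± 1.60), *Pdlim1* (15.8 ± 1.10) and *Ldb3* (0.894 ± 0.0836 CPM per kb), in which *Pdlim2* and *Pdlim1* overlapped. In Y428F cells with PTH *Pdlim5* (26.4 ± 2.30) and *Pdlim1* (25.1 ± 1.02 CPM per kb) overlapped. This order depends on the length used. With the median transcript length *Pdlim7*, at 61.8 ± 1.73 CPM per kb, stood above *Palld*, at 37.6 ± 2.13, in WT cells with vehicle, and *Pdlim5*, at 30.5 ± 1.58, was level with *Pdlim2*, at 29.7 ± 0.971. In WT cells with PTH *Pdlim5*, at 180 ± 6.54 CPM per kb of this length, stood above *Pdlim7*, at 115 ± 3.52, and *Palld*, at 100 ± 5.43.

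The largest change belonged to *Pdlim5* (ENSMUSG00000028273.16, from 141945345 to 142101830 on chromosome 3 of GRCm39), which encodes ENH, an Enigma protein that binds alpha-actinin and protein kinase C. In WT cells it had 69.0, 76.4 and 73.9 CPM with vehicle and 427.5, 449 and 418 CPM with PTH. In Y428F cells it had 77.9, 78.5 and 77.6 CPM with vehicle and 249.8, 297 and 269.7 CPM with PTH. The groups did not overlap between treatments in either line, the Y428F vehicle libraries lay just above the WT ones, and every Y428F library with PTH lay below every WT library with PTH. The log2 fold change with PTH was 2.56 ± 0.066 (SE) in WT cells, a 5.90-fold higher level. In Y428F cells *Pdlim5* rose 3.49-fold (log2 fold change 1.80 ± 0.065, adjusted p = 4.03e-13).

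*Palld* (ENSMUSG00000058056.17, from 61964458 to 62355796 on chromosome 8) followed the same direction. In WT cells it had 227, 252 and 249 CPM with vehicle and 643, 685 and 616 CPM with PTH. In Y428F cells the values were 253, 256 and 265 CPM with vehicle and 392, 437 and 390.3 CPM with PTH. Again the treatments did not overlap within a line, and the PTH libraries of the 2 lines did not overlap. The level was 2.67-fold higher with PTH in WT cells (log2 fold change 1.42 ± 0.062) and rose 1.57-fold in Y428F cells (0.66 ± 0.062, adjusted p = 4.97e-07).

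*Pdlim7* (ENSMUSG00000021493.16, from 55643608 to 55662151 on chromosome 13) encodes Enigma, the founding protein of its subfamily. Its 3 WT vehicle libraries had 88.3, 91.9 and 87.1 CPM and its WT PTH libraries 171, 166 and 161 CPM. In Y428F cells it had 92.7, 93.3 and 92.8 CPM with vehicle and 128, 125 and 126 CPM with PTH. These replicates were among the closest of the set, and the same separation was seen at a smaller size. With PTH the level was 1.86-fold higher in WT cells (log2 fold change 0.90 ± 0.051) and rose 1.36-fold in Y428F cells (0.44 ± 0.051, adjusted p = 5.94e-06).

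*Ldb3* (ENSMUSG00000021798.15, from 34248056 to 34312351 on chromosome 14) was expressed at a low level, with 37 to 165 counts per library. In WT cells it had 2.91, 3.18 and 1.99 CPM with vehicle and 8.31, 9.96 and 9.61 CPM with PTH. In Y428F cells it had 2.52, 1.97 and 2.51 CPM with vehicle and 4.66, 6.01 and 4.74 CPM with PTH. Every PTH library lay above every vehicle library of its line. The log2 fold change was 1.79 ± 0.18 in WT cells and 1.14 ± 0.19 in Y428F cells (adjusted p = 0.000361), with wider errors than for the other 3 genes.

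**Figure D1:**
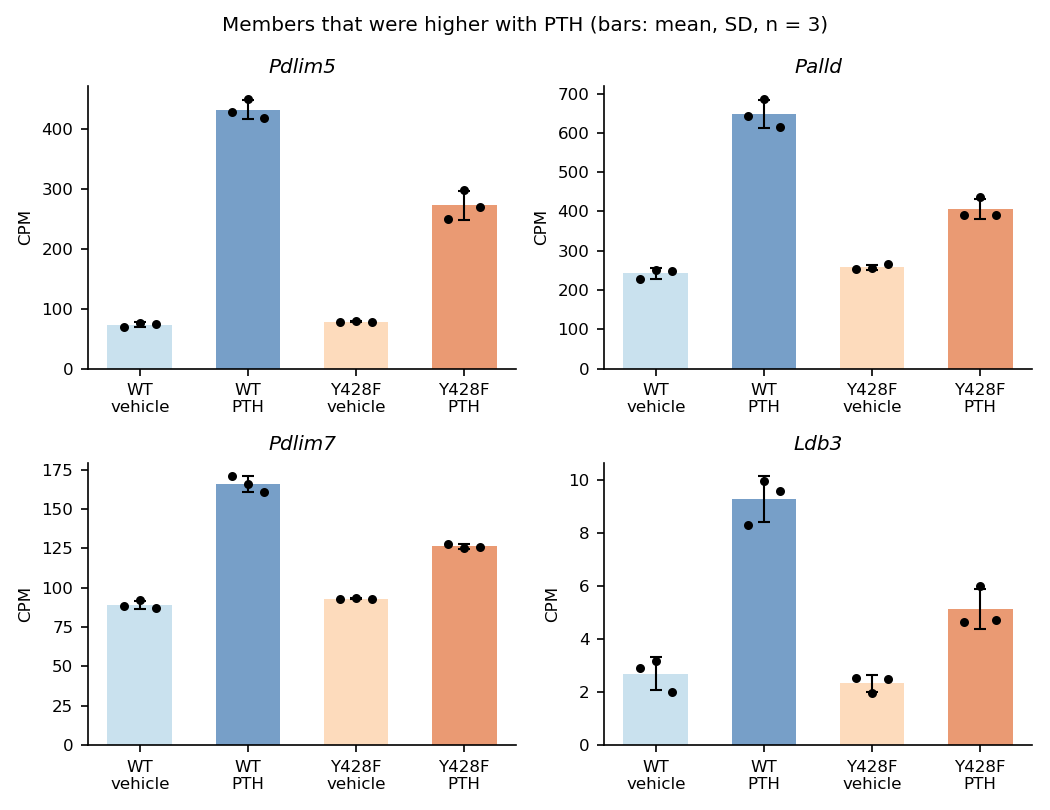
Expression of *Pdlim5*, *Palld*, *Pdlim7* and *Ldb3* in CPM (vertical axes, from 0) in the 4 groups. Bars are means, error bars SD and points the 3 libraries of a group. In each panel the WT libraries with PTH stand highest and the Y428F libraries with PTH stand between them and the vehicle libraries, as for *Pdlim5* with 418 to 449, 249.8 to 297 and 69.0 to 78.5 CPM.

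Of the ALP subfamily, *Pdlim1* and *Pdlim2* were expressed above 1 CPM. *Pdlim1* (ENSMUSG00000055044.13, from 40209617 to 40260533 on chromosome 19), which encodes CLP36, a stress fiber protein, had 44.8, 43.6 and 44.8 CPM in WT cells with vehicle and 48.5, 44.0 and 42.5 CPM with PTH. In Y428F cells it had 68.7, 66.2 and 71.4 CPM with vehicle and 74.04, 72.3 and 68.4 CPM with PTH. The treatments overlapped in both lines, and all Y428F libraries lay above all WT libraries. With PTH its level differed by 0.018 ± 0.064 on the log2 scale in WT cells and 0.058 ± 0.061 in Y428F cells (adjusted p = 0.642).

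*Pdlim2* (ENSMUSG00000022090.11, from 70399116 to 70415130 on chromosome 14), which encodes mystique, a scaffold that also takes part in the turnover of nuclear transcription factors, had 122, 121 and 128 CPM with vehicle and 99.99, 97.3 and 115 CPM with PTH in WT cells. In Y428F cells it had 127, 118 and 122 CPM with vehicle and 121, 102 and 111 CPM with PTH. The WT groups did not overlap, whereas the Y428F groups did. The log2 fold change was -0.25 ± 0.069 in WT cells and -0.14 ± 0.069 in Y428F cells (adjusted p = 0.233). *Pdlim4* was at 0.129 ± 0.0893 and 0.139 ± 0.0698 CPM in WT cells and at 0.210 ± 0.0804 and 0.481 ± 0.230 CPM in Y428F cells, with vehicle and PTH, so that a change with PTH was not detectable at this depth (adjusted p = 0.319 in Y428F cells).

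*Zyx* (ENSMUSG00000029860.17, from 42301575 to 42339894 on chromosome 6) was by far the most abundant transcript of the set. In WT cells it had 1712, 1698 and 1805 CPM with vehicle and 1945, 1971 and 1745 CPM with PTH. In Y428F cells it had 738, 704 and 745 CPM with vehicle and 773, 890.3 and 824.5 CPM with PTH. Every Y428F library lay below every WT library, and the treatments overlapped in WT cells but not in Y428F cells. The log2 fold change with PTH was 0.12 ± 0.062 in WT cells and 0.19 ± 0.062 in Y428F cells (adjusted p = 0.0573). In Y428F cells 10 of the 20 alternatives brought the adjusted p under 0.05, among them DESeq2 (0.0153) and the Y428F libraries alone (0.0185), and the 20 gave 0.0153 to 0.221.

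**Figure D2:**
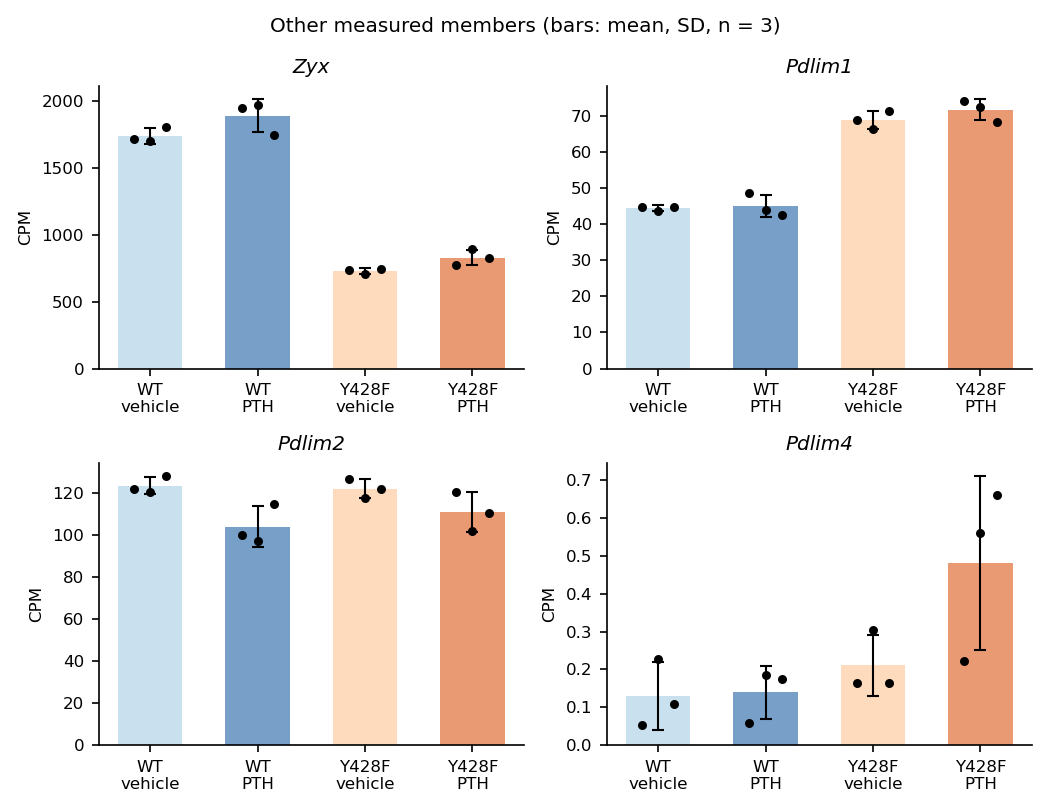
Expression of *Zyx*, *Pdlim1*, *Pdlim2* and *Pdlim4* in CPM (vertical axes, from 0), with bars as means, error bars as SD and points as the 3 libraries of each group. *Zyx* and *Pdlim1* separate the cell lines, at 704 to 890.3 against 1698 to 1971 CPM and at 66.2 to 74.04 against 42.5 to 48.5 CPM, whereas *Pdlim2* does not.

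Among the 8 genes tested, 4 were higher and 1 lower with PTH in WT cells at an adjusted p under 0.05, beside a background of 13.4% of the 17691 genes tested, 7.42% higher and 6.01% lower. Their selection rested on this comparison, so the count is a description and nothing is read from it. The PTH response of Y428F cells was not the stated basis of the choice, although earlier results of these data were known. In Y428F cells *Pdlim5*, *Palld*, *Pdlim7* and *Ldb3* rose with PTH and 0 fell, against a background of 12.4% of genes, 6.61% higher and 5.78% lower. The number at an unadjusted p under 0.05 that fell was also 0, and DESeq2 called none lower. These splits depend on the scaling and on single libraries for all genes. The number lower in WT cells was 643, 666 and 675 without WT vehicle library 2, WT vehicle library 3 or WT PTH library 1, and in Y428F cells it was 616, 676 and 651 without Y428F vehicle library 1, Y428F vehicle library 2 or Y428F PTH library 1. With library totals alone 956 genes were higher and 1608 lower with PTH in WT cells, in place of 1312 and 1063, and 888 and 1445 in Y428F cells, in place of 1170 and 1022, whereas the calls of these 4 genes did not move. The median log2 fold change of the 8 genes was 0.51 in WT and 0.55 in Y428F cells, beside medians of -0.019 and -0.0067 over all genes tested. These medians include *Pdlim4*, which was near the floor (0.12 ± 0.85 in WT and 1.16 ± 0.68 in Y428F cells). Among the 7 genes expressed above 1 CPM the middle value was that of *Pdlim7* in both lines, at 0.90 in WT and 0.44 in Y428F cells.

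All 4 genes changed less in Y428F than in WT cells. The log2 fold change of the Y428F line minus that of the WT line was -0.76 ± 0.090 for *Pdlim5*, -0.76 ± 0.087 for *Palld*, -0.46 ± 0.072 for *Pdlim7* and -0.65 ± 0.26 for *Ldb3* (SE). For the genes not called with PTH in Y428F cells it was 0.068 ± 0.088 for *Zyx*, 0.040 ± 0.088 for *Pdlim1*, 0.11 ± 0.098 for *Pdlim2* and 1.04 ± 1.11 for *Pdlim4*. These differences contain the WT response known when the genes were chosen and are given without a test.

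**Figure D3:**
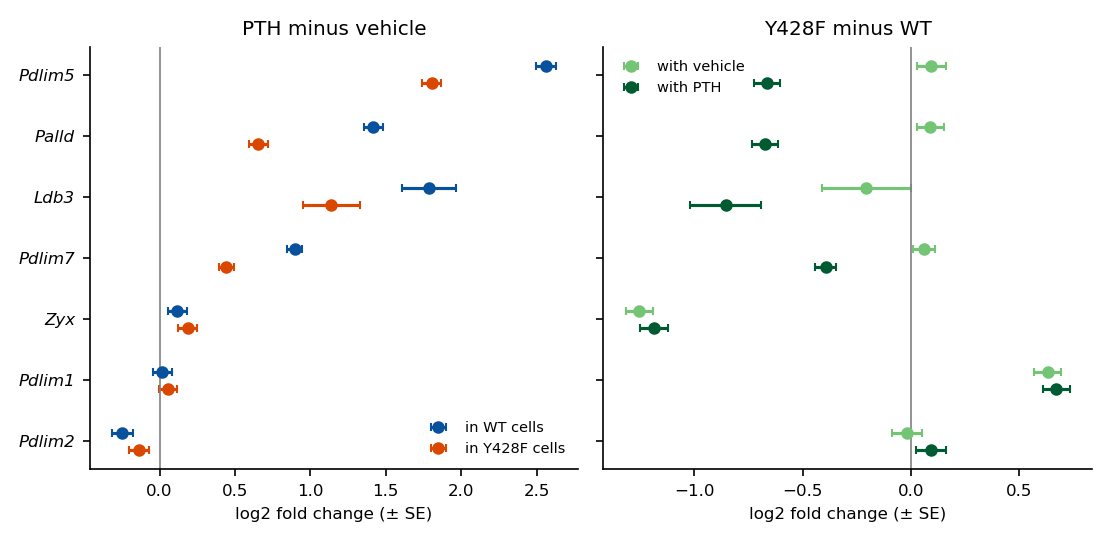
Log2 fold changes (horizontal axes) of the 7 genes expressed above 1 CPM, with points as estimates and error bars as SE. The left panel shows PTH minus vehicle in each line, with *Pdlim5* at 2.56 and 1.80, and the right panel shows Y428F minus WT in each treatment, with *Zyx* at -1.25 and -1.19.

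The cell lines were compared next, first with vehicle. This comparison shares its WT vehicle libraries with the contrast known when the genes were chosen. With vehicle *Zyx* was lower in Y428F cells, at 729 ± 21.7 against 1738 ± 58.2 CPM (log2 fold change -1.25 ± 0.063, adjusted p = 1.53e-12). *Pdlim1* was higher, at 68.8 ± 2.57 against 44.4 ± 0.730 CPM (log2 fold change 0.63 ± 0.062, adjusted p = 4.12e-08). The 2 calls among 8 genes, 1 in each direction, stand beside a background of 45.1% of genes, 22.4% higher and 22.7% lower, so that a call between the lines was common among all genes. For the 4 genes that rose with PTH the difference between the lines did not pass the test with vehicle. The log2 difference with vehicle was 0.094 ± 0.065 for *Pdlim5* (adjusted p = 0.265), 0.089 ± 0.062 for *Palld* (adjusted p = 0.263, and 0.0468 with library totals only), 0.061 ± 0.051 for *Pdlim7* (adjusted p = 0.364) and -0.21 ± 0.20 for *Ldb3* (adjusted p = 0.448). *Pdlim2* and *Pdlim4* had log2 differences of -0.017 ± 0.069 (adjusted p = 0.868) and 0.70 ± 0.79 (adjusted p = 0.512).

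With PTH the same 4 genes stood lower in the Y428F line. The WT libraries with PTH are those in which the genes had been seen, so these values are a description with no test. *Pdlim5* had 272 ± 23.7 against 432 ± 15.7 CPM, 0.631 of the WT level (log2 fold change -0.67 ± 0.061). *Palld* had 406 ± 26.4 against 648 ± 35.0 CPM (log2 fold change -0.67 ± 0.061). The log2 fold change was -0.39 ± 0.050 for *Pdlim7* and -0.86 ± 0.16 for *Ldb3*. For *Zyx* it was -1.19 ± 0.063 and for *Pdlim1* 0.67 ± 0.063, close to the values with vehicle. At an adjusted p under 0.05, 5 of the 8 genes were lower and 1 was higher, beside 45.7% of all genes, 23% lower and 22.8% higher, and nothing is read from that count. The median of the 8 genes was -0.53, against 0.019 over all genes, and with vehicle it was 0.075 against 0.012. *Pdlim4* had 4, 10 and 12 counts in the Y428F PTH libraries and 1, 3 and 3 in the WT ones (log2 fold change 1.74 ± 0.73), and *Pdlim2* had a log2 difference of 0.094 ± 0.070.

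Genes that overlap or adjoin *Zyx* were read beside it. Its exons share 1456 bases with *Epha1*, an ephrin receptor gene, and 31 bases with *Fam131b*, both on the opposite strand, and the sources used here do not state whether counting used the strand. The 12 libraries held 2 to 43 counts of *Epha1* each. With vehicle *Fam131b* had 109 ± 4.63 CPM in WT and 21.1 ± 0.367 CPM in mutant cells and was lower in the Y428F line (log2 fold change -2.37 ± 0.060, adjusted p = 4.09e-17). *Casp2*, the other gene with at least 2 CPM within 250000 bases of *Zyx*, was lower by less (-0.41 ± 0.072, adjusted p = 8.23e-05). Over the 541 such genes of chromosome 6 the median log2 difference was -0.17. Neighbours were also counted with vehicle beside the scaffolds whose own difference did not pass the test. Near *Pdlim5* 2 of 2 were lower, near *Palld* 1 of 3, near *Ldb3* 1 of 4 and near *Pdlim7* 4 of 15, where 4 were higher. Near *Pdlim2* 0 of 6 were lower and 2 higher, and near *Pdlim4* 0 of 3 were lower and 1 higher. Among all genes tested, which unlike these neighbours include genes under 2 CPM, 22.7% were lower and 22.4% higher. With the filter of at least 10 counts in every library, 3590 of 11543 genes were lower and 3496 higher. The neighbours of *Zyx* were named after their values were seen, and their part in the difference between the lines was not tested.

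The other genes of the same structures were followed in 3 lists of partners, which held 73 genes, 65 of them tested. The lists were chosen with earlier results of these data known, so their counts and p-values are no independent support. Over all genes tested, 7.42% were higher and 6.01% lower with PTH in WT cells and 6.61% and 5.78% in Y428F cells, with median log2 fold changes of -0.019 and -0.0067, and the counts of the lists stand beside these shares. Of 17 tested alpha-actinins and Z-disc or dense body proteins, 6 rose and 1 fell with PTH in WT cells, and 4 rose and 1 fell in Y428F cells, where 2 rose without Y428F PTH library 2. The median log2 fold changes of this list were 0.26 and 0.045. *Nexn*, which encodes the actin-binding protein nexilin, rose from 3.80 ± 0.719 to 16.6 ± 0.576 CPM in WT cells (log2 fold change 2.13 ± 0.16, adjusted p = 8.46e-09) and, in the mutant line, from 3.27 ± 0.231 to 5.53 ± 1.39 CPM (0.76 ± 0.17, adjusted p = 0.00630). Without Y428F PTH library 2 the latter was no longer called (log2 fold change 0.53, adjusted p just above the limit). *Csrp1*, a LIM protein that binds alpha-actinin and zyxin, rose in WT and Y428F cells, with log2 fold changes of 0.95 ± 0.057 (adjusted p = 3.01e-10) and 0.64 ± 0.057 (adjusted p = 2.36e-07). *Synpo*, which encodes synaptopodin, fell in both lines, with log2 fold changes of -0.57 ± 0.064 (adjusted p = 3.27e-06) and -0.78 ± 0.065 (adjusted p = 9.64e-08).

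The alpha-actinins are the binding partners that PDLIM proteins and palladin share. *Actn1* rose with PTH in WT cells, from 359.8 ± 30.0 to 484 ± 45.3 CPM (log2 fold change 0.43 ± 0.073, adjusted p = 0.000374), and in Y428F cells, from 317 ± 6.27 to 399 ± 28.6 CPM (0.33 ± 0.073, adjusted p = 0.00414). *Actn4* rose in WT cells, from 363 ± 19.6 to 435 ± 38.3 CPM (log2 fold change 0.26 ± 0.064, adjusted p = 0.00903), and had a log2 fold change of 0.045 ± 0.064 in Y428F cells (adjusted p = 0.748). The WT call of *Actn4* was lost without WT PTH library 1 (adjusted p = 0.0554) or library 2 (0.0551). With vehicle *Actn4* was higher in Y428F cells, at 486 ± 7.48 CPM (log2 difference 0.42 ± 0.064, adjusted p = 1.49e-05). *Actn1* was lower (log2 difference -0.18 ± 0.073, adjusted p = 0.0458), a call that was lost under 9 of 19 alternatives, with adjusted p from 0.00482 to 0.158.

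Of 23 tested LIM proteins of focal adhesions and stress fibers, 10 rose and 1 fell with PTH in WT cells, and 8 rose and 2 fell in Y428F cells. In Y428F cells 5 rose without Y428F vehicle library 2 or 3 or PTH library 3. The number that fell there was 0 without Y428F vehicle library 3 or PTH library 1 and 1 without WT PTH library 1 or 2, Y428F vehicle library 1 or Y428F PTH library 2 or 3, and in WT cells it was 0 without WT PTH library 3. The medians were 0.21 and 0.10. *Lims2*, which encodes the integrin-linked adaptor PINCH2, had the largest change in WT cells, from 1.58 ± 0.441 to 7.65 ± 0.777 CPM (log2 fold change 2.27 ± 0.21, adjusted p = 2.11e-07), and a smaller one in Y428F cells (1.09 ± 0.24, adjusted p = 0.00363). *Fhl1*, a gene of the FHL family of LIM proteins, rose in WT cells from 18.1 ± 3.62 to 66.3 ± 1.30 CPM and in Y428F cells from 65.6 ± 1.03 to 190.1 ± 6.92 CPM, with log2 fold changes of 1.87 ± 0.091 (adjusted p = 1.17e-11) and 1.53 ± 0.079 (adjusted p = 8.28e-11). *Lima1*, which encodes the actin bundler EPLIN, rose by 0.92 ± 0.071 on the log2 scale in WT cells (adjusted p = 1.46e-08) and by 0.60 in Y428F cells. *Fhl2*, another FHL gene, rose by 0.63 ± 0.066 in Y428F cells (adjusted p = 2.00e-06), from 65.4 ± 4.62 to 101 ± 2.26 CPM, and by 0.46 in WT cells, from 62.5 ± 5.27 to 85.8 ± 3.78 CPM, so that its estimate was the larger one in Y428F cells.

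Of the 25 actin assembly and adhesion partners of zyxin and palladin, 9 rose and 1 fell with PTH in WT cells (0 fell without WT vehicle library 3 or WT PTH library 3), and 7 rose and 0 fell in Y428F cells, with medians of 0.16 and 0.096. *Vcl*, which encodes the adhesion protein vinculin, rose from 370.2 ± 24.6 to 951 ± 60.7 CPM in WT cells (log2 fold change 1.36 ± 0.081, adjusted p = 2.93e-10) and from 279.8 ± 1.67 to 536 ± 75.9 CPM in Y428F cells (0.94 ± 0.080, adjusted p = 1.32e-07). The cytoplasmic actins *Actg1* and *Actb* rose in WT cells by 0.97 ± 0.054 (adjusted p = 1.25e-10) and 0.86 ± 0.063 (adjusted p = 9.07e-09) on the log2 scale. In Y428F cells *Actg1* rose by 0.44 ± 0.054 (adjusted p = 1.34e-05), and *Eps8*, which encodes an actin bundling and capping protein, rose by 0.53 ± 0.059 (adjusted p = 4.06e-06). The estimate for *Eps8* was smaller in WT cells, where it rose by 0.32 on the log2 scale.

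Of the 54 partner genes that averaged 2 CPM or more overall and 1 CPM or more in each line, 10 had a log2 fold change over 0.5 with PTH in WT cells, and all 10 had a smaller one in Y428F cells, as did the 4 scaffolds. The WT libraries both chose and enter these values, so the count is a description. The test of the difference itself called 0 partner genes higher and 5 lower in Y428F cells, beside 0.413% of all genes, 0.17% higher and 0.243% lower. The partner lists were chosen with earlier results known, so nothing is read from this count. The 5 became 2 without WT PTH library 1 and 3 without Y428F PTH library 3. The shares of all genes rest on 30 and 43 genes, which became 17 and 18 without the former library and 6 and 18 without the latter.

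**Figure D4:**
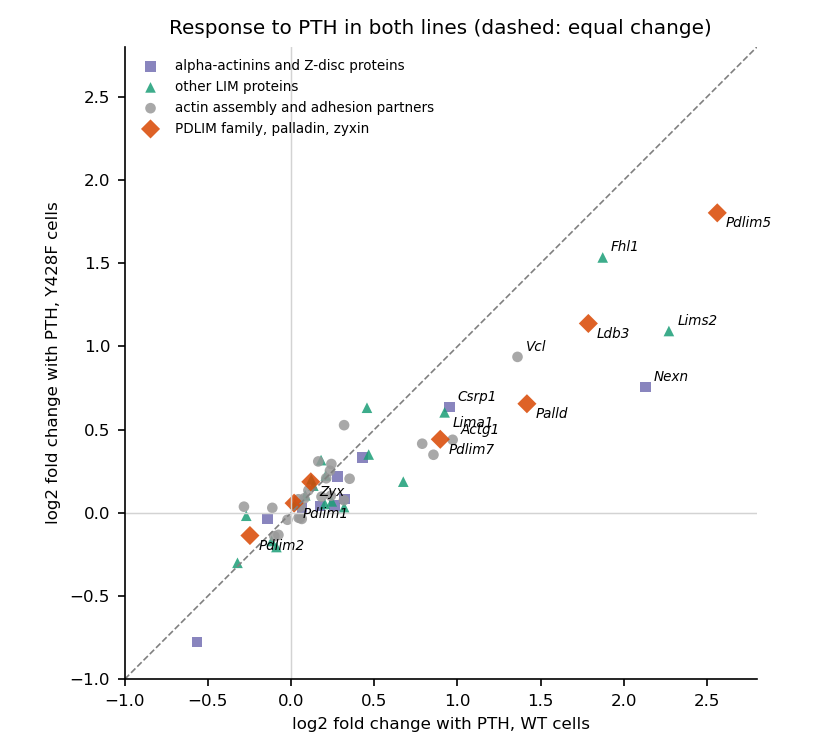
Log2 fold change with PTH in WT cells (horizontal axis) against that in Y428F cells (vertical axis) for 7 scaffold genes (diamonds) and 54 partner genes, with the dashed line at equal change. *Pdlim5* lies farthest out at 2.56 and 1.80, and the 4 scaffolds and 10 partner genes beyond 0.5 on the horizontal axis all lie below the line.

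Between the lines partner genes were called in both directions. With vehicle 20 of 65 were higher and 14 lower in Y428F cells, beside 22.4% and 22.7% of all genes. With PTH 22 were higher and 17 lower, beside 22.8% and 23% of all genes. The medians of the partner genes were 0.096 and 0.043, against 0.012 and 0.019 over all genes, and nothing particular to the partner genes is read from these counts. By list, 5 and 4 of the Z-disc proteins, 7 and 4 of the LIM proteins and 8 and 6 of the assembly partners were higher and lower with vehicle, and with PTH the counts were 5 and 6, 10 and 5, and 7 and 6. Leaving out 1 library moved the Z-disc counts except that of 6 lower with PTH, which was 6 each time. With vehicle 3 were higher without WT vehicle library 2 and 2 lower without WT vehicle library 3. With PTH 2 were higher without WT PTH library 3 or Y428F PTH library 2, and 3 were higher without WT PTH library 2 or Y428F PTH library 1, with the replicate block, with DESeq2 or with at least 10 counts in every library. *Limch1*, a LIM gene, had 0 to 3 counts per WT vehicle library and 0 to 10 per WT PTH library, against 318 to 335 and 290 to 356 in Y428F cells. *Fhl1* (log2 fold change 1.86 ± 0.090, adjusted p = 8.92e-13), *Diaph3*, which encodes a formin (1.19 ± 0.077, adjusted p = 8.34e-11), and *Csrp2* (0.81 ± 0.068, adjusted p = 3.75e-09) were higher in Y428F cells with vehicle. *Parvb*, which encodes beta-parvin, and *Lasp1* were higher by 0.81 ± 0.079 (adjusted p = 3.67e-08) and 0.63 ± 0.062 (adjusted p = 3.87e-08). *Ttn*, the titin gene, had 20 to 49 counts with vehicle in WT and 52 to 73 in Y428F cells (log2 fold change 0.90 ± 0.29, adjusted p = 0.0151). Its call was lost without WT vehicle library 2 (adjusted p = 0.0866) or Y428F vehicle library 1 (0.0624). *Sorbs2*, an adaptor of stress fibers, was lower in Y428F cells with vehicle (log2 fold change -0.80 ± 0.14, adjusted p = 6.95e-05). With PTH *Nexn* (-1.59 ± 0.15, adjusted p = 1.97e-08), *Lims2* (-1.44 ± 0.20, adjusted p = 3.34e-06) and *Vcl* (-0.83 ± 0.080, adjusted p = 2.85e-08) were lower in Y428F cells. *Fhl1* (1.52 ± 0.079, adjusted p = 2.59e-12), *Diaph3* (1.23 ± 0.078, adjusted p = 5.43e-11) and *Csrp2* (0.77 ± 0.068, adjusted p = 8.08e-09) were higher in Y428F cells with PTH.

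The patterns of *Pdlim5* and *Zyx* over the 12 libraries were compared with those of the other genes with at least 2 CPM, 11217 in number. The genes most like *Pdlim5* by Pearson correlation of log2 CPM were *Srf* (r = 0.996), *Mbnl1* (0.995), *Samd4* (0.991), *Csrp1* (0.988) and *Tpm1* (0.986). *Srf* had 74.3 ± 7.51 and 235 ± 12.1 CPM in WT cells and 78.1 ± 1.71 and 182 ± 8.62 CPM in Y428F cells, with vehicle and PTH. *Pdlim7* held rank 13 among these genes (r = 0.980), *Palld* rank 20 (0.974) and *Ldb3* rank 51 (0.952), whereas *Pdlim2* had r = -0.81, *Zyx* 0.24 and *Pdlim1* -0.079. The genes most like *Zyx* were *Lman1* (r = 0.996), *Mtss2* (0.996), *Tgoln1* (0.994), *Gvin2* (0.994) and *Ccdc80* (0.993), and *Pdlim1* had r = -0.96 with *Zyx*. The points of each correlation are 12 libraries in 4 groups, and those of a group share their line and treatment. By Spearman correlation 0 of the 5 genes were shared with either list.

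The labelled cell type was checked against its markers. Of 16 marker genes of bone marrow stromal cells, 14 had at least 10 counts in total, *Thy1* was at 0 in all libraries and *Nt5e* had 0 to 2 counts per library. *Col1a2* was the most abundant, and the summed level of the list was 23177 ± 1931 CPM in WT cells with vehicle, 22844 ± 1616 with PTH, 15061 ± 595 in Y428F cells with vehicle and 12751 ± 1441 with PTH. With vehicle 11 of 14 of these markers were lower in the Y428F line and 3 were higher, beside 22.7% lower and 22.4% higher among all genes. *Zyx* was lower in the same comparison. Their part in the result was not tested.

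Since these scaffolds are prominent in muscle, muscle markers were read beside them. Of 14 skeletal muscle markers, *Myod1*, *Myog*, *Myf5*, *Pax7*, *Myh2* and *Myh4* were at 0 counts in all libraries, and the sum of the list was 6.13 ± 0.930 and 6.19 ± 1.18 CPM in WT cells and 10.3 ± 0.919 and 10.2 ± 0.980 CPM in Y428F cells, with vehicle and PTH, mostly from *Des*. The 9 cardiac markers summed to 0.961 ± 0.0466 and 2.42 ± 0.251 CPM in WT cells and to 6.97 ± 0.117 and 10.4 ± 0.802 CPM in Y428F cells, with *Tnni3* at 0 in all and *Nkx2-5* at 0 counts in WT and at 75 to 90 counts in Y428F libraries. *Nppb* was the most abundant of them in each group except Y428F cells with vehicle, where *Nkx2-5* had 4.24 ± 0.129 and *Nppb* 2.16 ± 0.318 CPM. The 7 smooth muscle markers summed to 254 ± 9.42 and 669 ± 10.3 CPM in WT cells and to 241 ± 11.0 and 401 ± 16.2 CPM in Y428F cells, and 4 of 6 tested rose with PTH in each line, beside 7.42% of all genes in WT and 6.61% in Y428F cells. *Acta2*, the most abundant over all libraries, had 107 ± 15.8 and 487 ± 6.10 CPM in WT cells and 129 ± 7.48 and 290.1 ± 17.1 CPM in Y428F cells. *Smtn*, the most abundant in WT cells with vehicle, had 135 ± 9.10 and 136 ± 4.69 CPM in WT cells and 102 ± 3.98 and 94.9 ± 1.06 CPM in Y428F cells, and the defining genes *Myh11* and *Myocd* had 0 to 9 and 0 to 3 counts per library. Their part in the change of the scaffolds was not tested.

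Markers of other cell types were low. In WT and Y428F cells with vehicle the 7 blood cell markers, led by *Ptprc* and with *Cd3e* at 0, summed to 1.02 ± 0.0995 and 2.85 ± 0.348 CPM. The 4 endothelial markers, led by *Cdh5*, summed to 1.42 ± 0.453 and 8.91 ± 1.00 CPM, the 4 epithelial markers, led by *Krt8* and with *Epcam* at 0, to 0.624 ± 0.307 and 3.67 ± 0.799 CPM, and the 4 adipocyte markers, led by *Plin1* in WT and by *Cidec* in Y428F cells and with *Adipoq* at 0, to 0.178 ± 0.131 and 0.269 ± 0.102 CPM. With PTH the WT and Y428F sums were 0.591 ± 0.300 and 3.65 ± 0.146 CPM for blood, 1.05 ± 0.111 and 6.44 ± 0.328 for endothelial, 0.512 ± 0.260 and 4.41 ± 0.376 for epithelial and 0.216 ± 0.145 and 0.167 ± 0.00160 CPM for adipocyte markers.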

How the data were processed

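RNA-Seq of W-20 cells was analysed from the gene count matrix. According to the labels and the methods, reads were mapped with STAR 2.7.10b to GRCm39, and the authors deposited unscaled expected counts per gene from RSEM. RSEM can split reads between overlapping genes, and the strand setting was not given in the sources used here. After rounding to whole numbers they were fitted with edgeR 4.0.16 (R 4.3.3; limma 3.58.1), using TMM normalization, all 12 libraries in 4 groups and the 17691 genes whose counts totalled 10 or more. Comparisons used the quasi-likelihood test of edgeR, and p-values were adjusted by Benjamini-Hochberg over all genes tested. The matrix held 31906 genes that were 0 in all libraries after rounding. Gene positions came from GENCODE vM39, which matched 56236 identifiers and missed 744.

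The members and lists were chosen with earlier results of these data known. Named genes were the 9 members, *Actn1*, *Actn4*, *Yap1* and *Src*, and from each partner list the 3 called genes of at least 2 CPM that changed most on the log2 scale, as well as the 5 genes most like *Pdlim5* and *Zyx* (log2 CPM, prior count 2). Of each marker list the most abundant gene and those at 0 were named. Some marker and neighbouring genes are not reported here. Alternatives were DESeq2 1.42.0, its size factors, library totals, other filters, an adjusted p limit of 0.01, each line alone, a replicate block, other lengths and correlations, and each library left out. A check of the tests on simulated counts was made, but no result of it is given or used here. Counting intervals and the floor of 3 counts cover counting error only.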

Additional observations from a re-analysis of the deposited data

Results flagged for a closer look

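The change with PTH differed between the cell lines for 5 partner genes at an adjusted p under 0.05. The test was edgeR's quasi-likelihood test of the difference, with Benjamini-Hochberg adjustment over 17691 genes. The partner lists were chosen with earlier results of these data known, so these calls are no independent support. All 5 responded less in Y428F cells, and each log2 difference is the change in Y428F cells minus that in WT cells. *Nexn* (nexilin) had a log2 difference of -1.37 ± 0.24 (SE, adjusted p = 0.00997), with log2 fold changes of 2.13 in WT and 0.76 in Y428F cells. *Actg1* and *Actb* (cytoplasmic actins) had differences of -0.53 ± 0.076 (adjusted p = 0.00139) and -0.51 ± 0.089 (adjusted p = 0.0106), with changes of 0.97 and 0.86 in WT and 0.44 and 0.35 in Y428F cells. Both actins were called higher in Y428F cells with vehicle. In WT and Y428F cells *Actg1* had 2246 ± 40.7 and 3347 ± 91.9 CPM with vehicle and 4404 ± 144 and 4536 ± 191 CPM with PTH. *Actb* had 2360 ± 177 and 3153 ± 62.2 CPM with vehicle and 4271 ± 279 and 4015 ± 127 CPM with PTH. *Tgfb1i1* (the paxillin-related LIM protein Hic-5) had a difference of -0.49 ± 0.086 (adjusted p = 0.0112), from 0.67 to 0.19, and *Fermt2* (the integrin activator kindlin-2) one of -0.37 ± 0.076 (adjusted p = 0.0289), from 0.79 to 0.42. With libraries left out in turn, *Fermt2* lost its call without 9 of the 12 libraries, *Actb* without WT PTH library 1 or Y428F PTH library 3 (adjusted p = 0.0573 and 0.0565), and *Tgfb1i1* without WT PTH library 1, where the adjusted p lay just above the limit.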

How the results depend on the processing

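Over the 2 tested comparisons, 295 of 309 values of single members under the alternatives kept their direction and their side of the limit, 11 moved past it, 0 were lost and 3 changed sign. The sign changes were those of *Pdlim2* between the lines with vehicle, from -0.017 to 0.039 on the log2 scale with library totals only and to 0.013 and 0.0065 without WT vehicle library 3 or Y428F vehicle library 2 (range -0.051 to 0.013 with libraries left out). With library totals only, 2 members in place of 1 were higher in Y428F cells with vehicle (*Palld* was added, adjusted p = 0.0468) and, as a description, 2 in place of 1 with PTH (1 to 2 with libraries left out). At an adjusted p limit of 0.01, the count of members lower with PTH in WT cells, a description, was 0 in place of 1 (0 to 1 with libraries left out), 1 partner gene in place of 3 was lower in WT cells (1 to 3) and 1 in place of 3 in Y428F cells (1 to 3), and 2 in place of 5 had a lower response in Y428F cells (2 to 6). Replicate numbers recur across groups, but same-numbered libraries did not deviate together (mean correlation 0.0022 over 18 pairs, range -0.15 to 0.24). The correlations of each library with those of the other groups were averaged by replicate number. For 2 of 12 libraries the mean was highest for their own number. With the replicate block *Pdlim5* in Y428F cells had a log2 fold change of 1.80 with PTH (adjusted p = 1.66e-14), and the block changed no call of a member. For all genes, the limit of 0.01 left 788 higher and 488 lower with PTH in WT cells and 684 and 451 in Y428F cells, and the difference in response was called for 30 and 43 genes, against 96 and 120 without a filter on low counts, 51 and 72 with DESeq2, 6 and 16 at 0.01, and 6 to 37 and 18 to 57 with libraries left out. The number higher fell by more than 1.5 times without WT vehicle library 3, WT PTH library 1 or 2, any Y428F vehicle library or Y428F PTH library 1 or 3, and the number lower without the same libraries except Y428F PTH library 1. At this depth *Pdlim3* was not detected and a change of *Pdlim4* with PTH in Y428F cells was not detectable, and *Ldb3* had the widest errors of the genes that rose.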
